A study of Mus musculus with 27 samples.

Results

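Keratins are the intermediate filament proteins of epithelial cells, and 10 keratin genes of the mouse colon are described here across 27 RNA-seq libraries. The genes were taken by name from a table of 39971 genes. Krt8, Krt18, Krt19 and Krt20 formed the simple set of 4, and Krt4, Krt6a, Krt7, Krt14, Krt17 and Krt23 formed the stratified or wound set of 6. The set was chosen by measured values of the same libraries: the FOLFOX difference of Krt4 and Krt6a and the neoplasia difference of Krt20 were already known. In the 2 contrasts behind that choice, and in the contrast that reuses the FOLFOX libraries, each member's values are therefore a description with no p, and a count of members past the threshold stands only beside the share of all genes past it.

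All mice were wild-type BALB/c, and tissue was sampled 1 week after chemotherapy began. The NC group (6 libraries) was untreated apart from saline given into the peritoneum and by gavage, and its tissue was colon. The CAC group (5 libraries) had colonic neoplasia induced with azoxymethane, a carcinogen, and dextran sulfate sodium, which injures the colon lining (AOM/DSS), and received saline by both routes. The CAC_F group (5 libraries) had the same AOM/DSS disease and received FOLFOX (folinic acid, fluorouracil and oxaliplatin) into the peritoneum, with saline by gavage. The CAC_FP group (5 libraries) had AOM/DSS disease and FOLFOX, with a complex of probiotics by gavage in place of saline. The CAC_FPL group (6 libraries) had AOM/DSS disease, FOLFOX and the probiotics, with loperamide, an opioid receptor agonist that slows gut transit, added to the gavage. Tissue in the 4 AOM/DSS groups was a tumor-bearing segment of colon, so a difference from NC cannot be told apart from a difference in the tissue taken. The labels number the libraries within a group and do not say that each came from its own mouse, so the tests measure the spread between libraries. In bulk tissue, fewer cells of a type and less RNA per cell cannot be told apart.

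A keratin filament is built from pairs of a type I and a type II chain, so the 2 types are normally made together. In the intestine Krt8 (type II) pairs with Krt18, Krt19 and Krt20 (type I), and Krt20 marks the differentiated cells near the lumen. Stratified epithelia use other pairs: Krt14 is the type I chain of basal keratinocytes, Krt4 is a type II chain of non-cornified linings such as the oesophagus, and Krt6a (type II) and Krt17 (type I) appear in wounded or stressed skin. Krt7, a type II chain, is known from ducts and other simple epithelia and Krt23 is a type I chain found in gastrointestinal epithelium. The rule that chose the genes placed Krt7 and Krt23 with the stratified set, and they are kept there but also described apart.

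Promoter stretches are shown for Krt8 and Krt20, which followed each other most closely among the members compared with Krt20, and for Krt7, the most abundant gene of the stratified set. They run from 250 bases before the annotated start to 10 bases after it, are written 5′ to 3′ on the gene's strand, and come from the RefSeq table for GRCm38.p6. Capitals mark TATAAA or its reverse complement TTTATA.
Krt8 (chr15:102004333-102004592, minus strand): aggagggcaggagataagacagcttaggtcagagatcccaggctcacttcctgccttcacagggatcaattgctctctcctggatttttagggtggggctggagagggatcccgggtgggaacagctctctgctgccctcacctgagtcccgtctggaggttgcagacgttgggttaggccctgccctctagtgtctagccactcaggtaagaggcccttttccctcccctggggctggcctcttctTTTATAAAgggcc
Krt20 (chr11:99438144-99438403, minus strand): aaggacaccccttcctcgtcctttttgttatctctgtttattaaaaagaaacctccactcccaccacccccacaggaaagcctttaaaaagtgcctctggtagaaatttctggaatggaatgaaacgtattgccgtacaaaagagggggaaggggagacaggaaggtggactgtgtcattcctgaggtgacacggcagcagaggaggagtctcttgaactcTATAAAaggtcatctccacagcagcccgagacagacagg
Krt7 (chr15:101412153-101412412, plus strand): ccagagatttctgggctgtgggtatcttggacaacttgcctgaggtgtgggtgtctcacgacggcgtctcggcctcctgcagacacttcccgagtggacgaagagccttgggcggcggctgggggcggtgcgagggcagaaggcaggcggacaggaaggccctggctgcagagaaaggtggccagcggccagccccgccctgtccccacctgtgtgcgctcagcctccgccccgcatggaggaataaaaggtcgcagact
The RefSeq table held 6 of the 10 members (Krt7, Krt8, Krt14, Krt18, Krt20 and Krt23), each over a window of 300 bases that ends 50 bases after the start. TATAAA, searched on both strands, was present in 2 of these 6 windows and in 13.6% of 32851 promoters of the same length. In Krt20 it began 29 bases before the annotated start, and in Krt8 it overlapped its own reverse complement across the start. The AP-1 letters TGANTCA were in 0 of the 6 windows and in 7.81% of all promoters, and the KLF letters CACCC, on either strand, were in 5 of the 6 and in 57.5% of all promoters. A match is a description of the letters only, and Krt7 had no TATAAA match in this window.

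In the deposited coordinates (build: not given in the sources used here) the type II genes and Krt18 lie on chromosome 15 and the other type I genes on chromosome 11. Krt8 (101905133 to 101912917) and Krt18 (101936615 to 101940462) are close neighbours on opposite strands. None of the 10 positions equals the GRCm38 annotation, so those coordinates were not combined with the promoter table.

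Each library held between 56687812 and 79709845 counts, and 99.3% of all counts fell in the 15080 genes tested. A gene was tested where at least 5 of the 27 libraries reached 1 FPKM, the deposited level scaled for transcript length and library size. Krt7, Krt8, Krt18, Krt19 and Krt20 reached that level in all 27 libraries, Krt23 in 26, Krt17 in 18, Krt14 in 9, Krt4 in 7 and Krt6a in exactly 5. Every library in which Krt4 or Krt6a reached it came from a group given FOLFOX, so both passed the filter only through the groups where they were high. All 15 genes of the epithelial identity list (such as Epcam and Cdh1) and all 15 of the colonocyte list were detected in each group, which matches the labelled tissue. Libraries CAC replicate 2 and CAC_FPL replicate 3 stood apart in the summed level of 6 markers of the distal gut (Hoxa13, Hoxb13 and others): 144 and 395 CPM (counts scaled to library size), against 3.92 to 47.3 CPM in the other 25 libraries. Hoxa13 alone gave another picture, with 38.8 CPM in NC replicate 4 and 37.2 CPM in CAC replicate 2. It held 1.60 to 27.1 CPM in CAC_F and 0.538 to 3.83 CPM in CAC_FP. The part of gut position in the keratin values was not tested.

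Simple keratins made up nearly all keratin RNA of the set in every library. By summed FPKM of the 10 members, the 4 simple genes held between 97.8% and 99.6%. Krt8 alone held 47.6% to 56.7% and Krt19 held 26.5% to 34.1%. Ranked by median FPKM over the 27 libraries among all genes, Krt8 was the 17th and Krt19 the 26th, Krt20 was at rank 105 and Krt18 at rank 122. Krt7 was at rank 2085, Krt23 at rank 10544, Krt17 at rank 12921, Krt14 at rank 15074, Krt4 at rank 18081 and Krt6a at rank 20383.

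**Figure D1:**
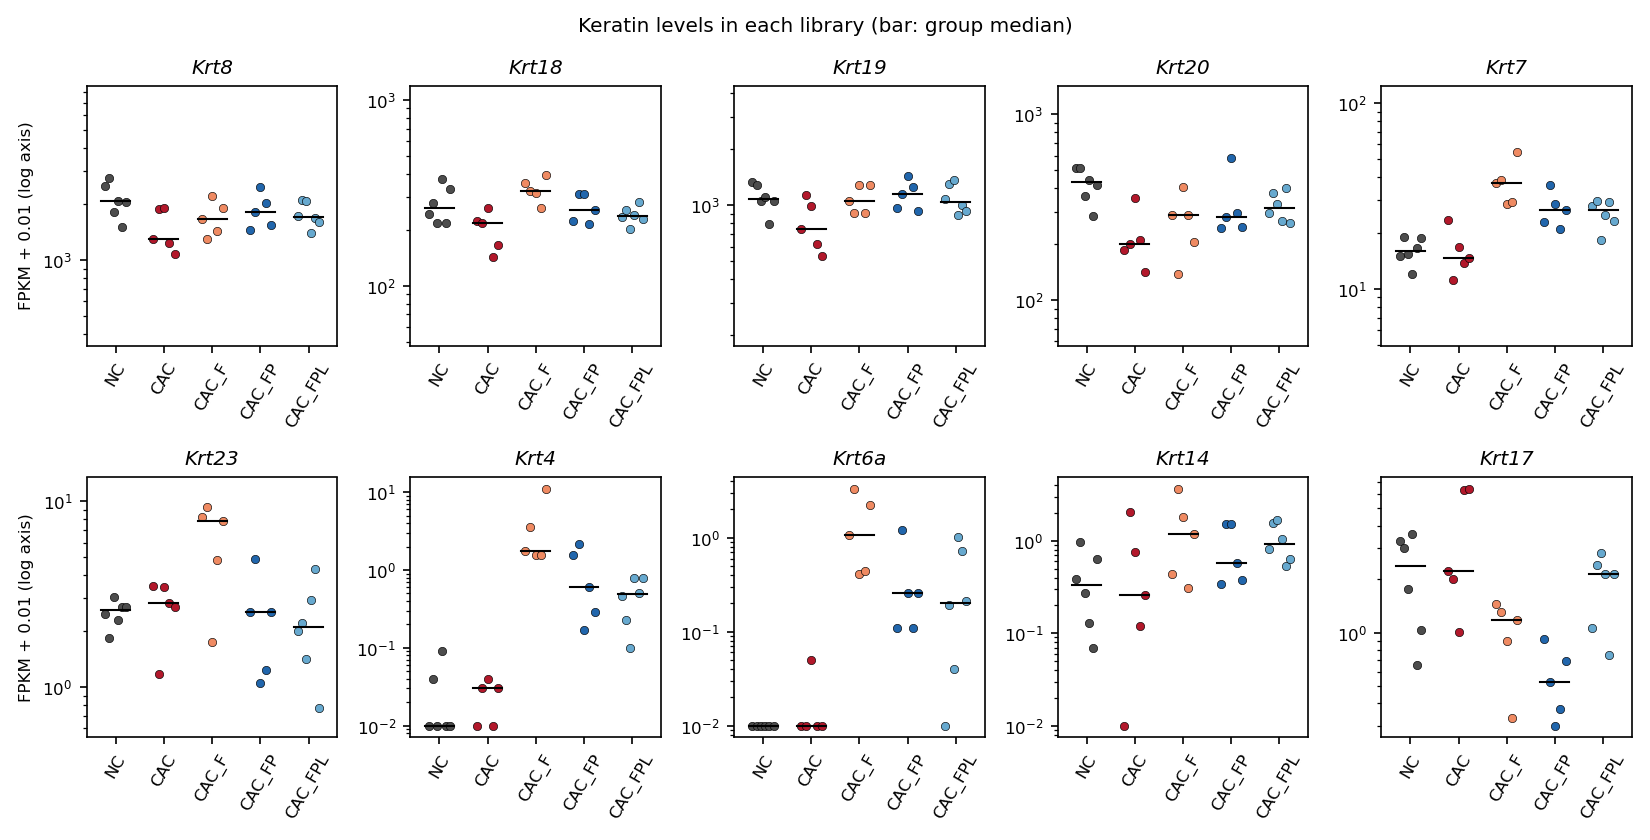
Level of each keratin in each of 27 libraries, as FPKM + 0.01 on a log axis, by group; each point is 1 library and each bar a group median. Krt4 and Krt6a sit at or near 0 in NC and CAC and highest in CAC_F. The 4 simple keratins vary less than Krt4 and Krt6a, with Krt20 running from 139 to 582 FPKM.

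Krt8, the common type II partner of the simple chains, had a lowest, median and highest level of 1515, 2067 and 2771 FPKM in the 6 NC libraries. In CAC the 5 libraries held 1295, 1885, 1913, 1235 and 1077 FPKM. In CAC_F they held 1663, 1297, 2199, 1442 and 1897 FPKM. CAC was the lowest group, but 2 of its libraries lay inside the NC range, and CAC_F overlapped both. CAC_FP held 1454, 1816, 2479, 2025 and 1537 FPKM, and CAC_FPL had a lowest, median and highest of 1399, 1699 and 2102 FPKM. The fitted log2 fold change of Krt8 was -0.59 ± 0.19 (SE) in CAC against NC and 0.12 ± 0.20 in CAC_F against CAC.

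Krt18, the type I chain encoded beside Krt8, was highest relative to Krt8 in CAC_F. CAC libraries held 222, 218, 261, 143 and 165 FPKM, and CAC_F libraries held 355, 324, 316, 263 and 392 FPKM. Every CAC_F library was above every CAC library in FPKM, the closest being 263 in CAC_F and 261 in CAC. On the CPM scale used for the fit the 2 groups overlapped, and the log2 fold change was 0.63 ± 0.17 in CAC_F against CAC and -0.53 ± 0.17 in CAC against NC. The ratio of Krt8 to Krt18 FPKM was 7.39 ± 1.25 (SD, n = 5) in CAC, 5.19 ± 1.12 (n = 5) in CAC_F and 7.15 ± 1.53 (n = 5) in CAC_FP. It was 7.87 ± 1.95 (n = 6) in NC and 7.46 ± 1.70 (n = 6) in CAC_FPL. The lowest ratio of all libraries was 4.00, in CAC_F replicate 2.

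Krt19, the smallest keratin and a partner of Krt8, differed by -0.54 ± 0.18 in CAC against NC and by 0.36 ± 0.19 in CAC_F against CAC on the log2 scale. Its FPKM ran from 534 in a CAC library to 1442 in a CAC_FP library, and the ranges of all neighbouring groups overlapped.

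Krt20, the chain of differentiated surface cells, had the largest fitted difference of the simple set between CAC and NC, which is the contrast that helped choose it. NC had a lowest, median and highest of 285, 431 and 516 FPKM. CAC held 185, 201, 356, 210 and 141 FPKM, so 4 of 5 libraries were below the NC range and replicate 3 was inside it. CAC_F held 286, 139, 407, 289 and 205 FPKM and CAC_FP held 245, 281, 582, 294 and 248 FPKM. CAC_FPL had a lowest, median and highest of 261, 312 and 401 FPKM. The log2 fold change was -1.02 ± 0.28 in CAC against NC, 0.19 ± 0.28 in CAC_F against CAC and 0.31 ± 0.28 in CAC_FP against CAC_F. The last value rested on CAC_FP replicate 3, at 582 FPKM, and was -0.0080 without it. As a share of the summed FPKM of Krt18, Krt19 and Krt20, Krt20 held 23.3% ± 1.18 (SD, n = 6) in NC, 17.9% ± 3.92 (n = 5) in CAC and 15.6% ± 4.82 (n = 5) in CAC_F. It held 18.4% ± 3.67 (n = 5) in CAC_FP and 19.4% ± 2.27 (n = 6) in CAC_FPL.

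Across the 27 libraries, Krt20 tracked Krt8 (Pearson r = 0.87 on log2(CPM + 1)) and Krt19 (r = 0.73) more closely than Krt18 (r = 0.42). The 5 genes outside the set most like it in pattern were Vil1 (r = 0.91), which encodes the microvillus protein villin, Itpk1 (r = 0.90), the tight junction gene Cldn7, Spint1 and Mall (each r = 0.89). These correlations describe libraries that share groups and depth and carry no test.

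The stratified set was small but differed between the groups. Its 6 genes held 0.551% ± 0.0996 (SD, n = 6) of the set's FPKM in NC, 0.907% ± 0.341 (n = 5) in CAC and 1.55% ± 0.556 (n = 5) in CAC_F. In CAC_FP they held 0.914% ± 0.276 (n = 5) and in CAC_FPL 0.931% ± 0.189 (n = 6). CAC_F, from 0.829% to 2.18%, lay wholly above NC, from 0.448% to 0.708%, and overlapped CAC, from 0.472% to 1.23%. The sum of the simple genes, which makes up most of the denominator, was 2708 ± 732 FPKM (n = 5) in CAC and 3927 ± 746 (n = 6) in NC. Krt7 supplied most of the stratified sum: group means ran from 69.0% in CAC to 84.7% in CAC_FP. Without Krt7 and Krt23 the set held 0.0636% ± 0.0263 (SD, n = 6) in NC, 0.180% ± 0.131 (n = 5) in CAC and 0.237% ± 0.170 (n = 5) in CAC_F. It held 0.0784% ± 0.0465 (n = 5) in CAC_FP and 0.111% ± 0.0390 (n = 6) in CAC_FPL. By this measure CAC_F, from 0.0901% to 0.437%, overlapped CAC, from 0.0514% to 0.346%. The ratio of summed type II to summed type I FPKM was 1.17 ± 0.0879 (SD, n = 6) in NC, 1.22 ± 0.0605 (n = 5) in CAC and 1.02 ± 0.0530 (n = 5) in CAC_F. It was 1.08 ± 0.0510 (n = 5) in CAC_FP and 1.07 ± 0.0508 (n = 6) in CAC_FPL. Every CAC_F library, 0.971 to 1.11, was below every CAC library, 1.13 to 1.28.

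**Figure D2:**
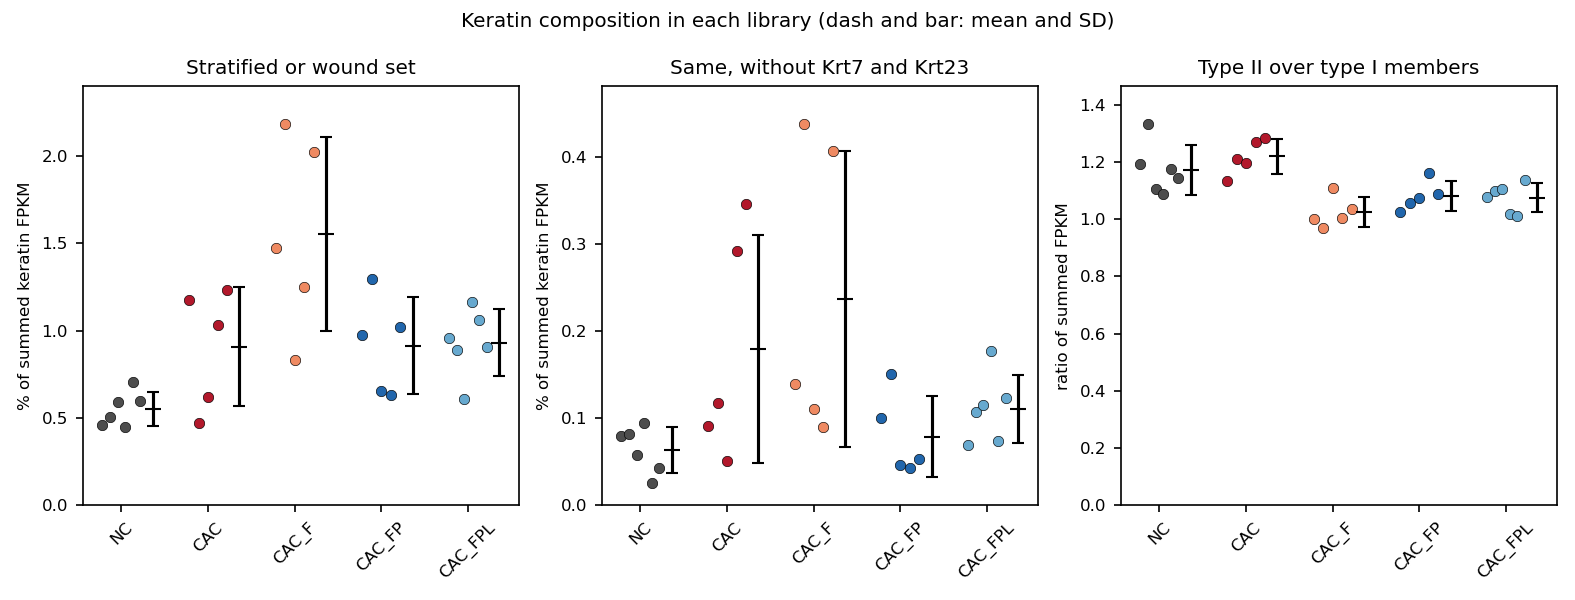
Share of the stratified or wound set in the summed FPKM of the 10 keratins (left), the same without Krt7 and Krt23 (middle), and the ratio of summed type II to type I FPKM (right); points are libraries, dashes and bars are group means and SD. CAC_F has the highest share (1.55%) and the lowest type ratio (1.02).

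Krt4, a type II chain of stratified linings, was nearly undetected without FOLFOX. It had 18 counts over the 6 NC libraries and 11 over the 5 CAC libraries. CAC_F held 1.76, 3.53, 1.57, 1.57 and 10.9 FPKM, and CAC_FP held 1.56, 2.16, 0.16, 0.59 and 0.28 FPKM. CAC_FPL had a lowest, median and highest of 0.090, 0.48 and 0.79 FPKM. No FOLFOX library was as low as the highest NC or CAC library, 0.080 FPKM in NC replicate 4, although CAC_FPL replicate 3 at 0.090 came close and the 2 overlapped on the CPM scale. The fitted log2 fold change of CAC_F over CAC was 7.88 ± 1.15, from 3165 against 11 counts. CAC_F replicate 5 alone held the highest level, and the fold change was 7.07 without it.

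Krt6a, the wound-associated type II chain, had 0 counts in all 6 NC libraries, which allows up to 3 counts over the group. In CAC its 7 counts were all in replicate 3. CAC_F held 1.06, 3.27, 0.40, 0.43 and 2.22 FPKM (1291 counts), and CAC_FP held 0.10, 1.19, 0.25, 0.10 and 0.25 FPKM (333 counts). CAC_FPL had a lowest, median and highest of 0, 0.19 and 1.00 FPKM (416 counts). All 5 CAC_F libraries were above all 5 CAC libraries, with a fitted log2 fold change of 7.26 ± 1.44. That value depends on the single CAC library with counts: without it CAC is at 0 counts and the fold has no fixed size. Krt6b, a near copy of Krt6a, had 29 counts in NC, 32 in CAC, 318 in CAC_F, 96 in CAC_FP and 97 in CAC_FPL. The treatment of reads common to both copies is unstated, so the split between them is uncertain.

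Over the 27 libraries Krt6a followed Krt4 (r = 0.86) and Krt7 (r = 0.80), and differed from its wound partner Krt17 (r = -0.36). The genes outside the set most like it were Tmem119 (r = 0.92), Las1l, Mdfi and Tenm3 (each r = 0.91) and the growth factor gene Bmp7 (r = 0.90). Mean Tmem119 level was 35.0 CPM in CAC and 182 CPM in CAC_F.

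Krt7 was the only member of the stratified set above 10 FPKM in each library. NC had a lowest, median and highest of 12.0, 16.0 and 18.9 FPKM. CAC held 23.5, 11.1, 16.8, 13.8 and 14.6 FPKM, and CAC_F held 37.2, 38.4, 28.8, 29.4 and 54.8 FPKM. CAC_F therefore lay wholly above CAC and NC, with a log2 fold change of 1.15 ± 0.20 over CAC. CAC_FP held 22.9, 36.4, 28.6, 21.1 and 26.5 FPKM. CAC_FPL had a lowest, median and highest of 18.3, 26.5 and 29.7 FPKM, between CAC_F and the groups without FOLFOX, with overlap on both sides.

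Krt23 was highest in CAC_F, at 8.21, 9.35, 1.74, 4.84 and 7.82 FPKM, against 3.51, 1.16, 3.43, 2.81 and 2.69 FPKM in CAC. Replicate 3 of CAC_F lay inside the CAC range. Krt23 had a log2 fold change of 1.14 ± 0.45 in CAC_F against CAC, which ran from 0.72 to 1.41 over the other settings tried.

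Krt17, a type I chain of wounded skin, went the other way. CAC held 2.22, 2.00, 1.00, 6.36 and 6.39 FPKM, CAC_F held 1.44, 1.30, 0.89, 0.32 and 1.16 FPKM, and CAC_FP held 0.91, 0.52, 0.29, 0.36 and 0.68 FPKM. NC had a lowest, median and highest of 0.65, 2.36 and 3.60 FPKM, and CAC_FPL had 0.74, 2.13 and 2.80 FPKM. The log2 fold change was -1.90 ± 0.54 in CAC_F against CAC, and the groups overlapped at the lowest CAC library. Krt14, the basal type I chain, ran from 0 to 3.61 FPKM with overlap between all groups. Its log2 fold change was 0.55 ± 0.82 in CAC against NC and -0.51 without CAC replicate 2, one of the libraries high in distal markers.

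Counted over the set, 0 of the 10 members passed an adjusted p of 0.05 in CAC against NC by edgeR's quasi-likelihood test, where 0.00663% of all genes tested did. DESeq2 and limma each called 0 members. All 4 simple genes had negative fold changes there. In CAC_F against CAC, 6 of 10 passed, where 39.1% of all genes did. The 5 higher members were Krt4, Krt6a, Krt7, Krt18 and Krt23, beside 19% of all genes higher. The 1 lower member was Krt17, beside 20.2% lower. For Krt23 the call was ended by 15 alternative settings, 8 of them leaving out 1 library. In that contrast 3 members (Krt4, Krt6a and Krt7) lay wholly above CAC in CPM, as did 10.9% of all genes. Nothing is read from these counts, because the contrast helped choose the members.

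**Figure D3:**
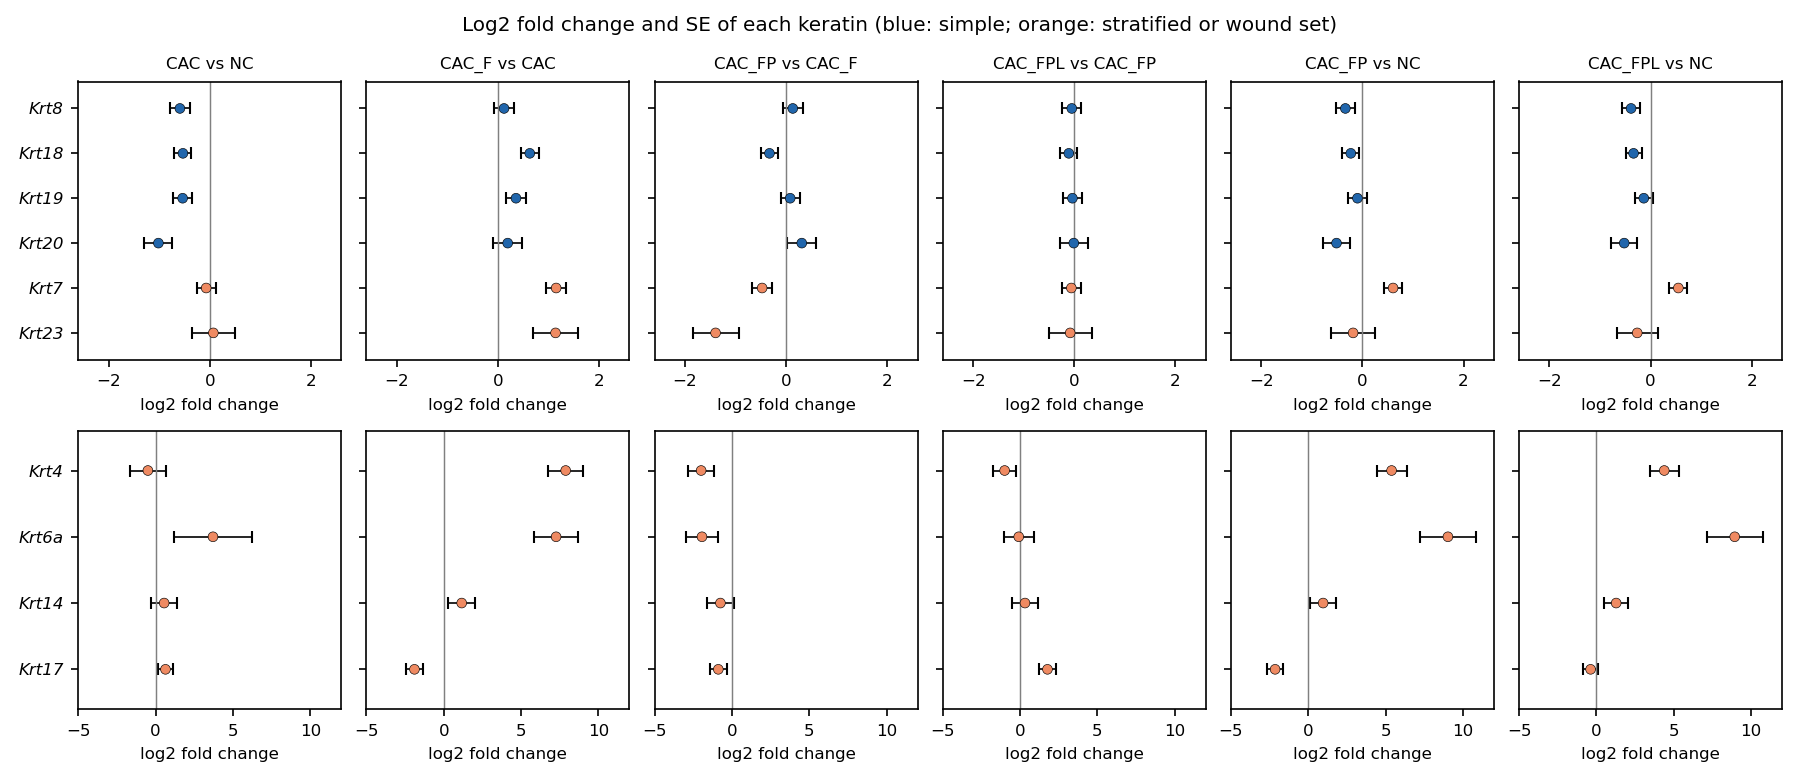
Fitted log2 fold change (point) and SE (bar) of each keratin in 6 comparisons, with the simple genes, Krt7 and Krt23 above and the genes of low level below on a wider axis. Krt4 and Krt6a have the largest values wherever a FOLFOX group is set against CAC or NC; Krt6a values against NC come from a group at 0 counts and have no fixed size.

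The comparison of CAC_FP with CAC_F bears on the addition of probiotics, and it reuses the CAC_F libraries. All 6 genes of the stratified set had lower fitted levels with probiotics, and 3 of the 4 simple genes had slightly higher ones. The latter direction was not stable: leaving out 1 library took Krt8 as low as -0.0031, Krt19 as low as -0.024 and Krt20 as low as -0.0080 on the log2 scale. Log2 fold changes were -1.99 ± 0.82 for Krt4, -1.94 ± 1.03 for Krt6a, -1.39 ± 0.45 for Krt23, -0.88 ± 0.54 for Krt17, -0.75 ± 0.85 for Krt14 and -0.47 ± 0.19 for Krt7. They were 0.13 ± 0.20 for Krt8, 0.08 ± 0.19 for Krt19 and -0.33 ± 0.17 for Krt18. By edgeR 0 of 10 members passed, as did 0% of all genes, and DESeq2 and limma called 0 members. The CPM ranges overlapped for every member, while 2.31% of all genes had ranges that did not.

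The comparison of CAC_FPL with CAC_FP bears on the addition of loperamide. Krt17 had the largest log2 fold change of the set, 1.77 ± 0.53, with mean levels of 3.10 ± 1.35 CPM (SD, n = 6) in CAC_FPL and 0.908 ± 0.409 CPM (n = 5) in CAC_FP. It did not pass edgeR's test after Benjamini-Hochberg adjustment (adjusted p = 0.611), and the ranges overlapped, since 1 CAC_FPL library lay inside the CAC_FP range. Again 0 of 10 members passed, as did 0% of all genes; Krt17 was the 1 member with an unadjusted p below 0.05, and DESeq2 and limma called 0. Krt4 held 1.06 ± 0.612 CPM (SD, n = 6) in CAC_FPL and 2.12 ± 1.94 CPM (n = 5) in CAC_FP. Krt6a had a log2 fold change of -0.09 ± 0.97, which turned to 0.98 without CAC_FP replicate 2. The 4 simple genes and Krt7 had fold changes between -0.11 and -0.01, with SE from 0.17 to 0.27.

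Against NC, 4 of 10 members passed in CAC_FP, where 26.5% of all genes tested did, and 2 of 10 passed in CAC_FPL, where 7.08% did. In CAC_FP 3 were higher and 1 lower, beside 14.1% and 12.5% of all genes; in CAC_FPL 2 were higher and 0 lower, beside 4.4% and 2.68%. The only CAC_FPL calls were Krt4 and Krt6a, and the CAC_FP calls were these genes, Krt7 and Krt17. Krt4 and Krt6a entered the test only through FOLFOX libraries, so nothing is read from these counts. The Krt4 and Krt6a values against NC are given without a p. Krt4 had a log2 fold change of 5.39 ± 0.97 in CAC_FP and 4.39 ± 0.94 in CAC_FPL. Krt6a was at least 117-fold higher than NC in CAC_FP and at least 118-fold higher in CAC_FPL, with 3 counts over the NC group taken as the floor. Both genes were low, below 1 FPKM in 3 of 5 CAC_FP libraries for Krt4 and 4 of 5 for Krt6a.

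Krt7 rose in CAC_FP against NC by 0.61 ± 0.19 (log2) (edgeR, adjusted p = 0.0186), and every CAC_FP library was above every NC library. Leaving out CAC_FP replicate 2 ended that call (adjusted p = 0.0623; range over alternatives 0.0049 to 0.0623). In CAC_FPL the value was 0.55 ± 0.18 and missed the threshold (adjusted p = 0.0592). It passed without CAC_FPL replicate 3, the library high in distal markers (adjusted p = 0.0221; range over alternatives 0.0124 to 0.125). Krt17 fell in CAC_FP against NC by 2.15 ± 0.54 on the log2 scale (adjusted p = 0.0057), whereas CAC_FPL differed from NC by -0.38 ± 0.48 (adjusted p = 0.659). Krt8, Krt18 and Krt19 had fold changes between -0.39 and -0.10 in both comparisons, none past the threshold. Krt20, whose level against NC helped choose it and is not tested, had -0.51 ± 0.27 in CAC_FP and -0.52 ± 0.26 in CAC_FPL, and -0.80 in CAC_FP without CAC_FP replicate 3. In CAC_FP, 3 members (Krt4, Krt6a and Krt7) lay wholly above NC in CPM, as did 8.4% of all genes tested. Of these, Krt4 and Krt6a entered the test only through FOLFOX libraries. In CAC_FPL 0 members lay wholly above NC, against 1.66% of all genes.

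Of 39 other keratin genes in the table, 5 passed the filter: Krt13, Krt36, Krt84, Krt87 and Krt90. In CAC_F against CAC, 3 of the 5 passed edgeR's test as higher and 0 as lower, beside 19% and 20.2% of all genes. Fitted log2 fold changes were 6.42 ± 1.28 for Krt90, 3.96 ± 1.09 for Krt36, a hair-type type I chain, and 1.89 ± 0.40 for Krt87, a hair-type type II chain. Krt90 held 0.080, 1.15, 0.050, 0.030 and 0.020 FPKM in CAC and 5.06, 85.5, 5.74, 3.31 and 18.0 FPKM in CAC_F. The 2 highest libraries, CAC_F replicates 2 and 5, were also the 2 highest for Krt4 and Krt6a. Outside the FOLFOX groups Krt36 and Krt90 reached 1 FPKM in 1 library, CAC replicate 2, and Krt87 in 1, NC replicate 2. All 3 thus passed the filter mainly through the groups where they were high, and no p is given for them. In CAC_F replicate 2, Krt90 exceeded Krt7 (38.4 FPKM) per length. Krt36 held 0.090, 3.37, 0.030, 0 and 0.060 FPKM in CAC and 6.77, 27.1, 6.44, 6.39 and 8.27 FPKM in CAC_F. Krt87 held 0.56 to 0.91 FPKM in CAC and 1.32 to 3.71 FPKM in CAC_F. All 3 genes lay wholly above CAC in CPM in each CAC_F library, as did 10.9% of all genes tested. They were named because they were called in this contrast, so nothing is read from that. Against NC, Krt87, Krt36 and Krt90 had log2 fold changes of 2.00 ± 0.38, 5.57 ± 1.15 and 3.35 ± 1.05 in CAC_FP, and Krt87 and Krt36 had 1.76 ± 0.37 and 5.25 ± 1.12 in CAC_FPL. Krt13, the usual type I partner of Krt4, held 0.68 to 6.39 FPKM in CAC_F. In CAC it held 0.02, 5.21, 0, 0 and 0.11 FPKM, the high value being replicate 2. Its difference of CAC_F from CAC was 1.41 ± 1.16 and did not pass (adjusted p = 0.345). CAC replicate 2 and CAC_FPL replicate 3 were also the highest libraries for Krt16, at 3.06 and 3.15 FPKM, against at most 0.70 in the others.

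**Figure D4:**
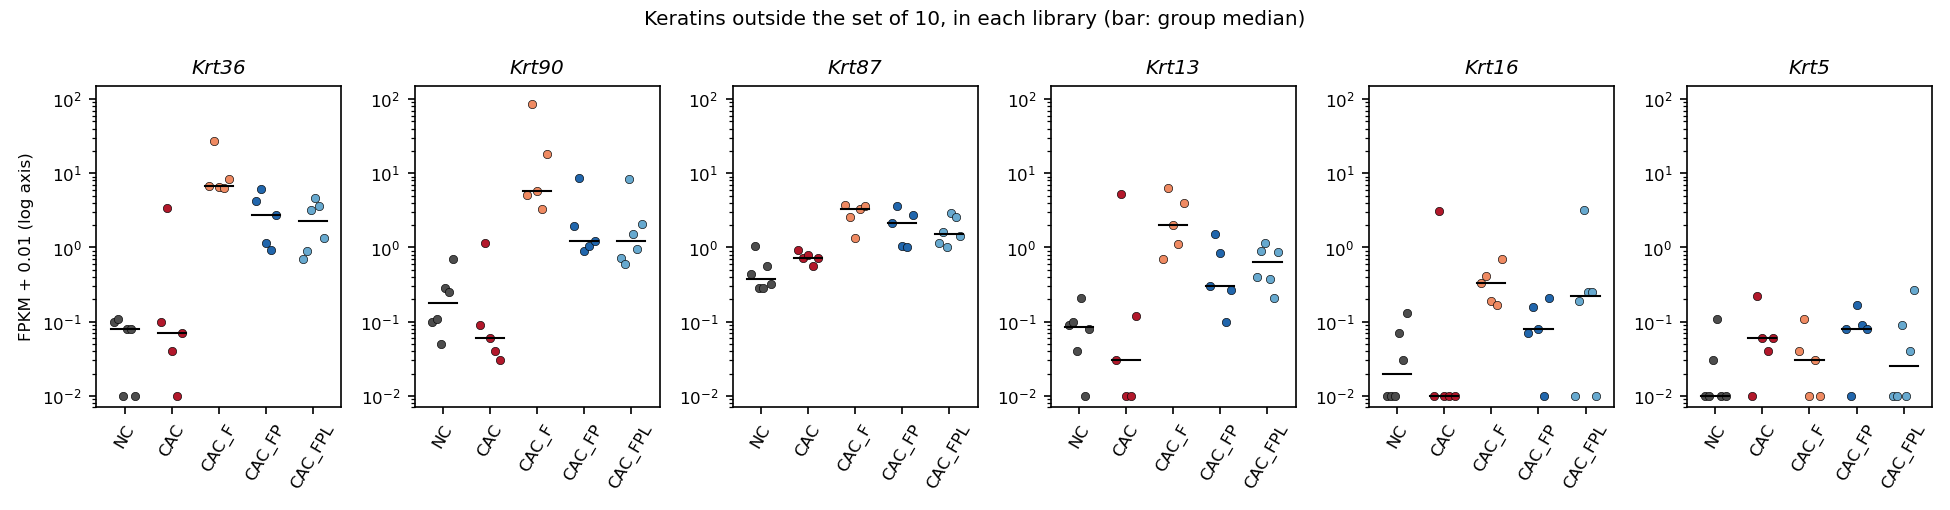
Level of 6 keratins outside the set of 10 in each library, as FPKM + 0.01 on a log axis, by group; points are libraries and bars group medians. Krt36, Krt90 and Krt87 are highest in CAC_F, Krt90 reaching 85.5 FPKM in replicate 2, and Krt5 stays below 0.3 FPKM everywhere.

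Krt5, the basal partner of Krt14, and Trp63, the master regulator of stratified epithelium, stayed at or near 0: at most 0.26 and 0.17 FPKM in any library. Neither passed the filter. Of 18 squamous and basal markers, 9 were tested, and 5 rose and 1 fell in CAC_F against CAC by edgeR's test, beside 19% of all genes higher and 20.2% lower. Among them were 2 laminin chain genes, whose products lie in basement membranes and are also made by simple epithelia: Lama3 rose by 1.68 ± 0.35 and Lamb3 by 0.96 ± 0.18 on the log2 scale. The summed squamous and basal level was 1048 to 1218 CPM in CAC_F and 508 to 874 CPM in CAC; its part in the Krt4 and Krt6a values was not tested. Of 9 skin markers 1 was tested (Dmkn), and it did not pass; their sum was 2.23 to 7.77 CPM in CAC_F and 3.60 to 5.68 CPM in CAC, with Calml3 and Krtdap at 0 in CAC_F.

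Of 13 desmosome and linker genes tested, 5 rose and 0 fell in CAC_F against CAC (19% and 20.2% of all genes; median log2 fold change 0.29, against -0.03 over all genes tested), a called share near the 39.1% of all genes. Ppl, which encodes periplakin, a linker of keratin to desmosomes, rose by 1.79 ± 0.19, the plakophilin gene Pkp2 by 0.43 ± 0.12 and the desmoglein gene Dsg2 by 0.41 ± 0.15. Of 7 cornified envelope genes tested, 5 rose and 0 fell in the same contrast; Csta1, a stefin A protease inhibitor gene, rose by 5.43 ± 1.05, Tgm1, the keratinocyte transglutaminase, by 2.46 ± 0.65 and Cstb by 0.60 ± 0.10. Against NC, Ppl, Csta1 and Tgm1 also rose in CAC_FP (1.14 ± 0.18, 5.42 ± 1.02 and 2.40 ± 0.61) and in CAC_FPL (0.78 ± 0.17, 4.50 ± 0.98 and 1.98 ± 0.59).

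Among 21 tested regulators linked to keratin genes, 7 rose and 4 fell in CAC_F against CAC, where 19% of all genes rose and 20.2% fell. Fosl1, an AP-1 subunit, rose by 5.78 ± 0.97, Grhl3, a regulator of barrier formation, by 2.93 ± 0.40 and Stat3 by 0.93 ± 0.20. Fosl1 had 14 counts over the NC libraries and 29 over the CAC libraries, against 1744 in CAC_F. Like Krt4 and Krt6a, it passed the filter through the FOLFOX groups, where it was high. Fosl1 and Grhl3 rose against NC in CAC_FP (6.13 ± 0.95 and 1.95 ± 0.36) and in CAC_FPL (4.80 ± 0.92 and 2.15 ± 0.35). Of 16 tested genes of wounded epithelium, 12 rose and 0 fell in CAC_F against CAC, with a median log2 fold change of 1.97; 19% of all genes rose. The growth factor genes Areg and Ereg belong to this list; Areg rose by 3.93 ± 0.51 there, and Anxa1 by 1.82 ± 0.26. Against NC 10 of the 16 rose in CAC_FP, where 14.1% of all genes did, and 10 of the 16 in CAC_FPL, where 4.4% did. The gene lists were chosen with earlier results of these data known, so the counts of this and the other lists are a description only.

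Of 15 colonocyte markers, 0 rose and 1 fell in CAC_F against CAC, the guanylin gene Guca2a, which fell by 1.93 ± 0.38 on the log2 scale. Of 15 epithelial identity genes, 1 rose and 5 fell, beside 19% and 20.2% of all genes, among them Hnf4g, which fell by 2.09 ± 0.46, and Phgr1, which fell by 1.71 ± 0.36. Among other filament genes, Des (desmin, of muscle) fell by 1.91 ± 0.39 and Synm by 1.94 ± 0.40, whereas the lamin gene Lmna rose by 0.66 ± 0.15. Of 9 tested smooth muscle markers 0 rose and 8 fell, beside 19% and 20.2% of all genes. The summed level of the smooth muscle list was 1569 to 2789 CPM in CAC_F against 3233 to 14617 CPM in CAC, with none at 0. The summed level of 10 leukocyte markers was 1026 to 1551 CPM in CAC_F and 302 to 1018 CPM in CAC, with none at 0. Of the 10 leukocyte markers 2 rose (Ly6g by 5.00 ± 1.17 and S100a8 by 2.94 ± 1.14) and 1 fell, beside 19% and 20.2% of all genes. The median log2 fold change of the 10 was -0.22, against -0.03 over all genes tested, although their sum was higher. Of 6 tested mesothelial markers, Msln rose by 3.34 ± 0.74 and Gpm6a fell by 1.22 ± 0.39, with sums of 24.1 to 105 CPM in CAC_F and 18.7 to 47.0 CPM in CAC. The part of muscle, leukocyte and mesothelial content in the keratin values was not tested.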

How the data were processed

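Stranded mRNA libraries were made from total RNA, per the labels' protocols. Reads were handled with cutadapt 1.9, FastQC and HISAT2, per the submitters' processing notes; no counter, annotation or build is named there. The authors deposited whole counts and FPKM per gene in 1 table. Counts of the 15080 genes with at least 1 FPKM in at least 5 of 27 libraries were fitted with edgeR 4.0.16 (quasi-likelihood, TMM scaling, 1 coefficient per group, Benjamini-Hochberg adjustment over all genes tested, threshold 0.05; R 4.3.3). Levels between genes were compared in the deposited FPKM, and library levels for correlations in TMM-scaled CPM. SE is the fold change divided by the square root of F. Alternatives used DESeq2 1.42.0, limma 3.58.1, other filters and scaling, a replicate block and each library left out. The members and the 14 gene lists were chosen with earlier results of these data known. Named genes were all members, called non-member keratins, and up to 3 called genes of each list (or up to 2 with the smallest p). The 5 genes most like Krt6a and Krt20 each were also named. Krt5, Krt6b, Krt16, Krt84, Trp63, the CAC and CAC_F values of Krt13 and the levels of Hoxa13 were added after their values were seen. One gene that this rule names is not reported here. On simulated data for CAC_F against CAC over 15080 genes, the fit recovered 70 of 100 genes changed by 1 on the log2 scale and 88 of 100 changed by 2. Depth limits Krt4, Krt6a and Krt14 most; intervals from counts cover counting error only.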

Additional observations from a re-analysis of the deposited data

Results flagged for a closer look

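Dixon's gap test was applied to each member in each group and to the stratified share, 55 tests in all, and 5 passed its 95% critical value; chance gives about 1 in 20 groups, here 2.8. Krt4 in NC replicate 4 lay above the other NC libraries (gap over range 0.661; 0.225 CPM against 0 to 0.0712). Krt6a in CAC replicate 3 was the one CAC library with counts (gap over range 1.0; 0.117 CPM against 0). Krt6a in CAC_FP replicate 2 stood at 3.00 CPM against 0.265 to 0.646 in the others (gap over range 0.771). Krt20 in CAC_FP replicate 3 stood at 1178 CPM against 495 to 592 (gap over range 0.793). Krt23 in CAC replicate 2 was low, at 1.83 CPM against 4.82 to 6.22 (gap over range 0.769).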

How the results depend on the processing

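There were 1250 pairs of a member's fold change and an alternative setting. Of these, 1212 kept their call, 21 lost a call, 10 gained one and 7 moved by more than their error. A pair that kept its call could still change sign, as Krt8 and Krt19 did in CAC_FP against CAC_F. With 1 library left out, the members called ranged from 0 to 0 in CAC against NC, 5 to 6 in CAC_F against CAC, 0 to 1 in CAC_FP against CAC_F, 0 to 0 in CAC_FPL against CAC_FP, 3 to 5 in CAC_FP against NC and 2 to 3 in CAC_FPL against NC. The 1 call in CAC_FP against CAC_F was Krt23 without CAC_F replicate 3. With limma on log2(FPKM + 1), the 1 member called in CAC_FPL against NC was Krt7, and the Krt4 and Krt6a calls were lost. That setting also ended the Krt6a call in CAC_FP against NC. In CAC_FPL against NC, limma on log2(FPKM + 0.1) and a fit of only the groups compared ended the Krt6a call too. On the CPM scale the stratified share was 1.66% in NC, 2.52% in CAC, 4.50% in CAC_F, 2.94% in CAC_FP and 2.92% in CAC_FPL. On the FPKM scale without Krt7 and Krt23 it was 0.0636%, 0.180%, 0.237%, 0.0784% and 0.111% in the same order. On the FPKM scale with all 6 genes and 1 library left out, the share was 0.520% to 0.572%, 0.826% to 1.02%, 1.39% to 1.73%, 0.820% to 0.985% and 0.885% to 0.996%. Deviations of same-numbered libraries correlated over 0.1 in 4 of 5 pairs in CAC_F against CAC and in 4 of 5 in CAC_FP against CAC_F, and in every pair in no comparison, so the numbers were not taken to pair the libraries. With the replicate number as a block, 5 members were called in CAC_F against CAC, 4 in CAC_FP against NC and 2 in CAC_FPL against NC. The call lost was Krt23 in CAC_F against CAC. The settings without the libraries high in distal markers, and without CAC_F replicates 1 and 2, were chosen after seeing the data. Both ended the Krt23 call, and the former added Krt7 in CAC_FPL against NC and Krt19 in CAC_F against CAC. The cause of these changes was not tested.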
